A study of Mus musculus with 8 samples.

Results

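Red cell precursors and the haem pathway were followed in mouse spleen through a list of 32 gene symbols covering globins, haem synthesis, the red cell membrane and erythroid transcription factors. The members were all probe sets that the platform annotation gives to exactly 1 of these symbols, which came to 54 of the 45101 probe sets on the array and covered 29 symbols. Of the 54, 3 are array controls for the transferrin receptor and 5 lay below the filter on dim signals, which left 46 probe sets of 28 genes in the test. Hba-a1 had only a dim probe set, and Hbb-b1, Ahsp and Epb41 were not analysed here as genes of their own.

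The study compared spleen cells of male mice aged 8 weeks, with 4 wild-type samples (strain C57Bl/6J) set against 4 that carry Yaa (strain B6.SB-Yaa/J), from 1 spleen each apart from Yaa 3, a pool of 2. Yaa, the Y-linked autoimmune accelerator, is a Y chromosome that carries a copy of a distal part of the X chromosome including Tlr7, on the same C57Bl/6 background, and the question was which genes differ with it. The suspensions were treated with ammonium chloride, which lyses mature red cells, so the erythroid RNA measured came from the cells that were left. Nothing in the labels states the share of erythroid cells in a sample, and in RNA of a whole suspension fewer cells of a type and less RNA per cell cannot be told apart. Samples are named by group and the replicate number of the labels.

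The mouse spleen, unlike the adult human one, makes red cells throughout life in its red pulp. A committed progenitor needs the erythropoietin receptor Epor and the transcription factors Gata1, Tal1 and Klf1, takes up iron through the transferrin receptor Tfrc, divides several times while it fills with haemoglobin, and then leaves the cell cycle and loses its nucleus. Haem is built by a chain of enzymes that begins and ends in the mitochondrion: Alas2 makes the first precursor, Alad, Uros, Urod, Cpox and Ppox carry it on, and Fech inserts the iron that the carrier Slc25a37 brings in.

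Values are log2(signal + 16) of quantile normalized MAS5 signals, and a difference of 1 is a 2-fold change. A gene is represented by its tested probe set with the highest mean signal. The 28 genes were bright: their mean levels ran from 9.59 to 13.57, 24 of them among the brightest 10% of the 10340 tested genes. No gene passed the filter through 1 group only, and all 28 stood above the filter level of 5.38 in every array.

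Many of these genes are known targets of GATA1 and KLF1, and the sequence just before the start sites of a few is shown. RefSeq promoter windows on GRCm38.p6 were found for 22 of the 32 symbols, 28 windows in all. They include windows of Epb41 and Hba-a1, which had no tested probe set, and the Hba-a1 window holds both a GATA motif and a CACCC box. The shares below are thus of the listed symbols, and the part of the motifs in the expression differences was not tested. Searched were a GATA motif, spelled AGATAA with G allowed as its last letter and T as its first, a CACCC box, spelled CCACCC, the NF-E2 core, spelled TGAGTCA, and an E-box, spelled CAGATG or else the palindrome CAGCTG, on both strands, over the 250 bases before each start. A GATA motif was in 14 of 28 windows (50%, against 26.5% of 32851 windows of all genes), a CACCC box in 11 (39.3% against 28.1%), and both in 7 (25% against 5.8%). The NF-E2 core was in 2 windows (7.14% against 4.46%) and an E-box in 5 (17.9% against 25.5%). A match is a description of letters and not a bound site. The last 160 bases before the start follow for Alas2 (chrX:150547257-150547416, plus strand), Epor (chr9:21963577-21963736, minus strand), Ermap (chr4:119189996-119190155, minus strand), Kel (chr6:41704326-41704485, minus strand) and Klf1 (chr8:84901822-84901981, plus strand), with GATA motifs and CACCC boxes in capitals as read on the gene's strand. The first 4 hold both motifs in this stretch and Klf1 holds a GATA motif alone.
Alas2: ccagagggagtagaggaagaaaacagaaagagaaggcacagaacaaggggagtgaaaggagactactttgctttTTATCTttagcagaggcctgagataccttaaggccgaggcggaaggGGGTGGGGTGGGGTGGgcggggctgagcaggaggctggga
Epor: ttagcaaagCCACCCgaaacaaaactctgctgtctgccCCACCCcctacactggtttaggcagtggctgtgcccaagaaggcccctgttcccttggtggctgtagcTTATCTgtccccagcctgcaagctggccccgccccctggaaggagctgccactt
Ermap: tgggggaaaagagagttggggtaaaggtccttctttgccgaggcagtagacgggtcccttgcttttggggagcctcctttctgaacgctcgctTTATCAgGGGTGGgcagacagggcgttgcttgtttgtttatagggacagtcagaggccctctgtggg
Kel: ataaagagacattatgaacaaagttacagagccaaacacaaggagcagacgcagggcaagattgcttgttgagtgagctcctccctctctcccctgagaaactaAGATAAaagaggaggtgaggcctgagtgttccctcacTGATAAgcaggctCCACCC
Klf1: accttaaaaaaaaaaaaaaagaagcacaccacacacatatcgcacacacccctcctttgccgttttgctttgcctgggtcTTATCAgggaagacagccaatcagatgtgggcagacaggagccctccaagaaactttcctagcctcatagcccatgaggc

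Of the 8 arrays, Yaa 2 and Yaa 3 stood apart from the rest over all tested probe sets, at 68.8 and -92.4 on the first principal component (56.8% of the variance), with the other 6 between -18.4 and 20.0. The trimmed mean of the deposited signals was 162 in Yaa 2, inside the wild-type range of 144 to 193, and 107 in Yaa 3. The log2 difference between the 3′ and 5′ control probe sets of beta-actin, a sign of RNA integrity, was 0.41 in Yaa 2 and 0.31 to 0.45 over all arrays, and that of Gapdh was -0.37 and -0.46 to -0.27. That of the transferrin receptor, itself one of the genes described, was 1.81 in Yaa 2, the largest of the 8 arrays, and 1.38 to 1.79 in the others, and its part in the results was not tested. As a check of the labels, 10 genes of the X segment that Yaa duplicates were read in every array, and Yaa 2 lay above all wild-type samples in 9 of them, Ofd1 being the exception. Tlr7 stood at 7.31, 6.96, 7.24 and 6.85 in wild type and at 8.02, 8.51, 7.62 and 7.86 in Yaa 1 to 4. Results below are given with and without Yaa 2, the sample on which they turned.

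The erythroid genes had lower mean signals in Yaa, and the difference lay in 1 of the 4 Yaa samples. All 28 genes had a lower mean in Yaa, where 54.2% of all tested genes did, with a median log2 difference of -0.40 against -0.02 over all genes. limma called 0 of the 28 at an adjusted p under 0.05 (adjusted p of 0.997 or above) and 0 at an unadjusted p under 0.05. Over the whole array it called 1 probe set, 0.00444% of 22518, and at an unadjusted p under 0.05 1.76% were lower and 2.97% higher. Every one of the 28 genes was lowest in Yaa 2, where 30.3% of all tested genes were. Relative to the wild-type mean, Yaa 2 had a median of -1.79 on the log2 scale (3.45-fold lower), with a range over genes from 1.62-fold to 5.85-fold, while the median of all genes in Yaa 2 was 0.01 above it. In 26 of the 28 the gap was over 1, where 8.16% of all genes had one, and 24 of the 28 were among the 500 genes with the deepest drop in that sample.

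**Figure D1:**
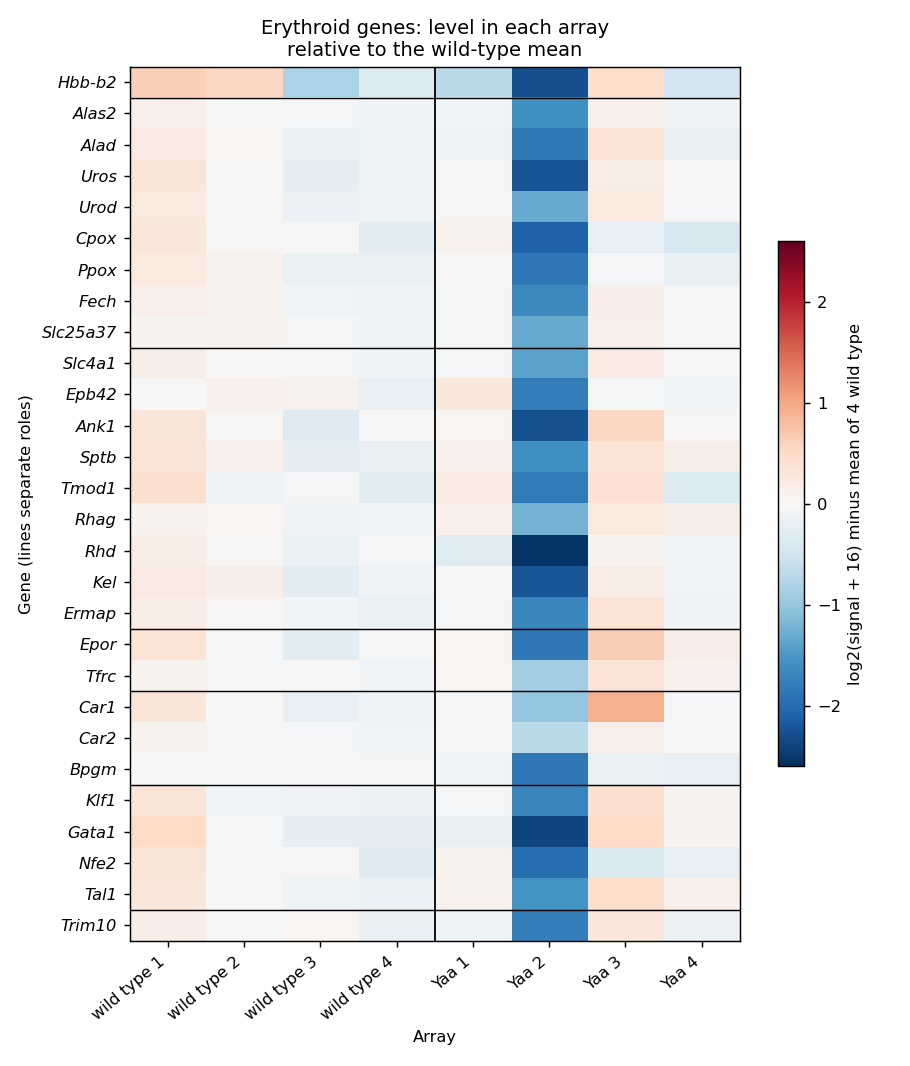
Colour gives log2(signal + 16) of each of 28 erythroid genes (rows, in blocks by role) in each of 8 arrays (columns) minus the mean of the 4 wild-type arrays, blue for lower and red for higher. Yaa 2 is blue in every row, from -0.69 for Car2 to -2.55 for Rhd, and the other Yaa arrays lie near the wild-type arrays.

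Yaa 1, Yaa 3 and Yaa 4 were close to wild type. Their medians over the 28 genes were -0.02, 0.25 and -0.03 relative to the wild-type mean, and those of wild type 1 to 4 were 0.24, 0.02, -0.09 and -0.13. With Yaa 2 left out, the median difference was 0.05 (0.02 over all genes), 21 genes were higher and 7 lower, and 26 of 28 differed by under 0.25 in either direction. In that fit 46.1% of all genes were lower. limma without Yaa 2 called 0 of the 28 (0.133% of all probe sets) and listed 1 at an unadjusted p under 0.05 (9.16% of all probe sets), Rhag at 0.18 ± 0.08 (SE; limma adjusted p = 0.539). With Yaa 3 left out as well, the median was -0.03, 19 of 28 were lower and 0 were called (0.466% of all probe sets). The spread shows the same split: the median SD over the genes was 0.20 among wild type, 0.91 among the 4 Yaa samples and 0.20 among the 3 without Yaa 2, where over all genes it was 0.17, 0.33 and 0.24.

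**Figure D2:**
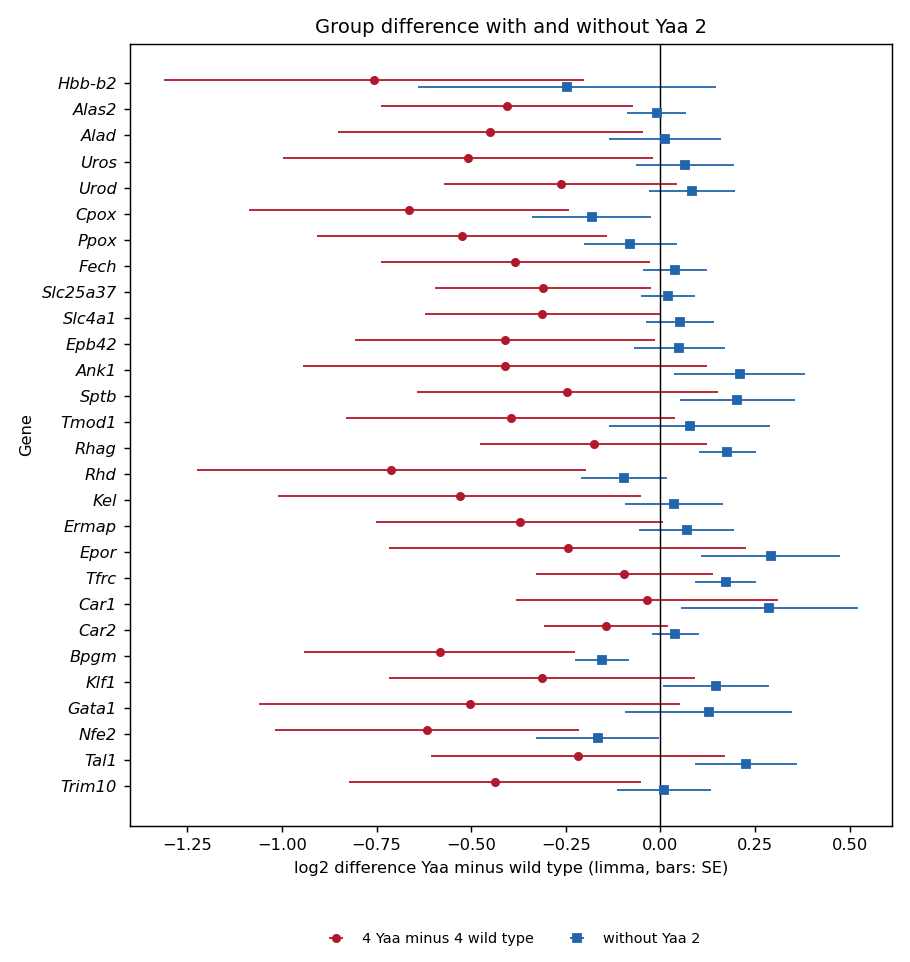
Points give limma's log2 difference of Yaa minus wild type for 28 erythroid genes with all 4 Yaa samples (red circles) and without Yaa 2 (blue squares), and bars give the SE. All red points lie below 0, from -0.04 for Car1 to -0.76 for Hbb-b2, and the blue points lie between -0.25 and 0.29.

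Among the enzymes of haem synthesis, all 8 tested genes including the iron carrier were lowest in Yaa 2, with a median of -1.74 relative to the wild-type mean. Alas2, the erythroid enzyme of the first step, stood at 13.26, 13.11, 13.08 and 13.04 in wild type 1 to 4 and at 13.05, 11.54, 13.26 and 13.02 in Yaa 1 to 4. Yaa 2 lay at -1.59 relative to the wild-type mean and the other 3 Yaa samples overlapped wild type, with a group difference of -0.41 ± 0.33 (SE; limma adjusted p = 0.997) and of -0.01 ± 0.08 (SE; limma adjusted p = 0.971) without Yaa 2. By the brightest probe sets Uros, which closes the porphyrin ring, had the deepest drop of the pathway, at 11.69, 11.41, 11.15 and 11.26 in wild type and 11.40, 9.14, 11.56 and 11.37 in Yaa. Fech, the last enzyme, stood at 12.84 to 13.10 in wild type and at 12.95, 11.33, 13.14 and 12.95 in Yaa 1 to 4. The drops of Alad, Cpox, Ppox, Urod and Slc25a37 were 3.56-fold, 4.32-fold, 3.62-fold, 2.49-fold and 2.50-fold. Dimmer tested probe sets gave smaller drops of 2.66-fold for Uros, 2.06-fold and 2.32-fold for Cpox and 1.56-fold for Ppox. Those of Alad and Fech gave 3.40-fold and 2.75-fold to 3.13-fold, and that of Urod a larger 3.19-fold.

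Cpox had the most negative difference of the 8 once Yaa 2 was left out, with Yaa 1, 3 and 4 at 11.26, 10.95 and 10.75 against 10.88 to 11.46 in wild type. That difference was -0.18 ± 0.16 (SE; limma adjusted p = 0.694), within the spread between samples. A second probe set of the gene went the other way, with Yaa 1, 3 and 4 at 10.78, 11.07 and 10.76 against 10.14 to 10.72 in wild type.

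The genes of the membrane and its skeleton gave the same picture, with 9 of 9 tested lowest in Yaa 2 and a median there of -1.79. Rhd, a blood group antigen of the Rh complex, had the largest drop of the 28 genes. It stood at 12.64, 12.48, 12.27 and 12.41 in wild type and at 12.14, 9.90, 12.54 and 12.37 in Yaa, 5.85-fold lower in Yaa 2 than the wild-type mean. Its deposited signal was 973 in Yaa 2 and 4499 to 6568 in the other 7 arrays. Rhag, which carries Rhd to the membrane, had a smaller gap there of 2.35-fold, with 11.80 to 11.97 in wild type and 12.01, 10.65, 12.12 and 12.03 in Yaa 1 to 4. Yaa 1, 3 and 4 lay above all wild-type samples in Rhag, the difference that passed the unadjusted threshold above.

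Slc4a1, the anion exchanger band 3 and the main membrane protein of the red cell, stood at 13.54, 13.39, 13.32 and 13.27 in wild type and at 13.35, 11.98, 13.60 and 13.35 in Yaa. Its 3 tested probe sets stood at -1.40, -0.71 and -2.45 in Yaa 2 relative to wild type, the last from the dimmest of them. Ank1, the ankyrin that ties band 3 to spectrin, dropped 4.83-fold, Sptb, the spectrin beta chain, 3.03-fold, Epb42 3.47-fold and Tmod1, which caps the short actin filaments of the skeleton, 3.52-fold. Kel, the Kell blood group protein, and Ermap, the Scianna antigen, dropped 4.69-fold and 3.22-fold. In none of these 6 did the groups separate, since Yaa 1, 3 and 4 overlapped wild type.

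Both surface receptors were lowest in Yaa 2, Epor at 8.09 and Tfrc at 11.86. Epor stood at 10.31, 9.91, 9.65 and 9.91 in wild type, and Yaa 3 was the highest of the 8 arrays at 10.58, so that its difference without Yaa 2 was 0.29 ± 0.18 (SE; limma adjusted p = 0.609), the largest positive one of the 28. Tfrc, which all dividing cells use to take up iron, stood at 12.69 to 12.85 in wild type and at 12.81, 13.10 and 12.88 in the other Yaa samples. The brightest Tfrc probe set put Yaa 2 only 1.86-fold below wild type, while the other tested probe sets stood at -1.85 and -1.63 there and the 3 array controls of the gene at -1.79 to -1.42.

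The carbonic anhydrases, which turn carbon dioxide into bicarbonate, had 2 of the 3 smallest gaps in Yaa 2, beside Tfrc. Car2 stood at 13.74, 13.66, 13.60 and 13.56 in wild type and at 13.61, 12.95, 13.77 and 13.66 in Yaa, a gap of 1.62-fold for Yaa 2. Car1 stood at 12.18, 11.84, 11.64 and 11.76 in wild type and at 11.82, 10.83, 12.79 and 11.83 in Yaa, a gap of 2.03-fold. In Car1 the spread had another source as well, since Yaa 3 lay 0.93 above the wild-type mean, the largest rise of any of the 28 genes in that sample.

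Bpgm, which makes the 2,3-bisphosphoglycerate that lowers the oxygen affinity of haemoglobin, was the 1 gene of the 28 whose groups did not overlap, where 1.86% of all tested genes lay wholly lower in Yaa and 2.61% wholly higher. It stood at 11.53, 11.52, 11.54 and 11.48 in wild type and at 11.45, 9.65, 11.34 and 11.30 in Yaa. The difference was -0.58 ± 0.36 (SE; limma adjusted p = 0.997) and, without Yaa 2, -0.15 ± 0.07 (SE; limma adjusted p = 0.554). A second of its 3 probe sets also separated the groups and the third did not.

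The erythroid transcription factors were lowest in Yaa 2 too. Gata1, the master regulator of the lineage and also of megakaryocytes, stood at 10.81, 10.24, 10.07 and 10.05 in wild type and at 10.10, 7.90, 10.81 and 10.36 in Yaa, 5.26-fold lower in Yaa 2. Klf1, the activator of adult beta-globin, stood at 12.56, 12.17, 12.15 and 12.08 in wild type and at 12.20, 10.53, 12.67 and 12.32 in Yaa. Nfe2 dropped 3.91-fold and Tal1 2.94-fold. Without Yaa 2, Gata1, Klf1 and Tal1 differed by 0.13, 0.15 and 0.23 and Nfe2 by -0.17, all with a limma adjusted p of 0.595 to 0.851. Trim10, an erythroid ring-finger protein, dropped 3.43-fold in Yaa 2 and differed by 0.01 without it.

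Hbb-b2, a beta-globin gene, was the most variable of the 28 within wild type, with an SD of 0.70. Its bright probe set stood at 11.57, 11.49, 10.13 and 10.59 in wild type and at 10.23, 8.65, 11.40 and 10.45 in Yaa, 4.89-fold lower in Yaa 2 than the wild-type mean. Beta-globin genes are near-identical copies and C57Bl/6 mice carry the Hbb-bs and Hbb-bt pair, so which transcript this probe set reads is uncertain. A second Hbb-b2 probe set was below the filter, at 4.15 to 5.62 over the arrays.

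Probe sets shared between adult globin genes lay in Yaa 2 between -0.03 and 0.03 relative to the wild-type mean in 3 of 4 cases. These 4 probe sets, annotated to several adult globin genes at once and so outside the rule, stood near the top of the scale, whose highest value was 14.03. Whether signals this bright could still register a drop was not tested, so their values do not show that haemoglobin RNA was unchanged. The 1 annotated to Hbb-bt, Hbb-bs, Hbb-b2 and Hbb-b1 together was at 13.48, 13.20, 13.41 and 13.32 in wild type and at 13.31, 13.38, 13.63 and 13.32 in Yaa, so Yaa 2 was 0.03 above the wild-type mean. As deposited its signal was 12459 in Yaa 2, above the 9819 to 11436 of the other 7 arrays. Of the 3 annotated to Hba-a2 and Hba-a1 together, 2 gave Yaa 2 values 0.01 and 0.03 below the wild-type mean.

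The remaining alpha-globin probe set, singled out after its values were seen, went another way. It stood at 13.14, 13.14, 13.19 and 13.13 in wild type and at 14.03, 12.69, 14.03 and 14.03 in Yaa. In Yaa 1, 3 and 4 it was the brightest probe set of the array, so normalization set it to the same top value there. As deposited it read 9031, 9883, 8649 and 8885 in wild type and 20431, 7458, 14853 and 15763 in Yaa, so that Yaa 2 was the lowest array and the other Yaa arrays were the 3 highest. Because the shared top value erases the spread between those 3 arrays, no difference, error or p is given for this probe set. The labels give all 4 Yaa samples the same strain, and whether Yaa 2 differs from the other 3 at the alpha-globin genes or elsewhere in its genome was not tested. The other 3 shared globin probe sets differed by -0.01 to 0.10 without Yaa 2 and were not called (limma adjusted p 0.657 to 0.974).

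**Figure D3:**
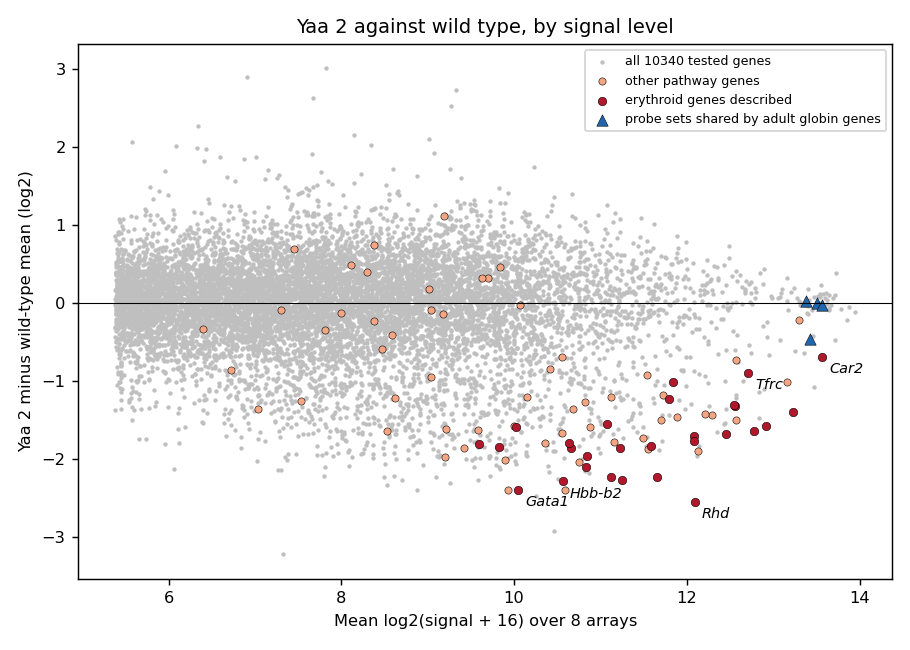
Each point is a gene, with its mean log2(signal + 16) over 8 arrays on the horizontal axis and Yaa 2 minus the wild-type mean (log2) on the vertical axis, for all 10340 tested genes (grey), other genes of the pathway (orange) and the 28 erythroid genes (red), with the 4 probe sets shared by adult globin genes as blue triangles. The red points lie along the lower edge of the cloud at high signals, from -0.69 to -2.55, and the triangles lie at the top of the scale, from -0.46 to 0.03.

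Further probe sets of the same genes mostly placed Yaa 2 lowest as well. Of the 46 tested probe sets, 45 were lowest in Yaa 2 and 44 had a lower mean in Yaa. The exception to the first count was a probe set of Sptb at a level of 5.40 in wild type, close to the filter, and the exceptions to the second were that probe set and 1 of Cpox. Of the 12 genes with several tested probe sets, Slc4a1 had the widest range in Yaa 2 relative to wild type, from -2.45 to -0.71, followed by Sptb, from -1.60 to -0.01.

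Within wild type the genes also ranked the samples alike. Wild type 1 was the highest of the 4 in 26 of 28 genes, where it was in 38.0% of all tested genes, by amounts that reached 0.62 for Hbb-b2 and 0.52 for Gata1 above the wild-type mean. Among Yaa 1, 3 and 4, Yaa 3 was the highest in 23 of 28, where it was in 51.4% of all genes. Over all 8 arrays, Yaa 3 was the highest in 15 genes (35.6% of all genes) and wild type 1 in 11 (11.2% of all genes). Alas2 and Urod were ties of wild type 1 and Yaa 3 at the top, and both are counted under wild type 1.

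Of 71 further genes of the pathway, 57 were tested, and limma called 0 (2 at an unadjusted p under 0.05). Their median difference was -0.21, with 43 lower and 14 higher, where 54.2% of all tested genes were lower. In Yaa 2 their median was -1.20, and 44 were lowest there, where 30.3% of all tested genes were. The median difference was 0.08 without Yaa 2. By role, the other membrane genes were lowest in Yaa 2 in 11 of 12 cases and the enzymes in 8 of 8. The other factors were in 8 of 12 and the other genes of haem synthesis and transport in 6 of 8. The 1 other globin gene tested was not. Genes of iron uptake and release were in 9 of 9, but with a median there of -0.86 and values as near wild type as -0.13. Of the 7 components of erythropoietin signalling, which other blood cells share, 2 were lowest there. The 6 genes with the smallest p were Bcl11a, a repressor of embryonic and fetal globin that B cells also use, at -0.45 ± 0.14 (SE), Alas1, the form of the first haem enzyme found in all tissues, at 0.49 ± 0.17 (SE), Hba-a2 at -0.38 ± 0.18 (SE), Bach1, a haem-sensing repressor, at 0.28 ± 0.13 (SE), the haem transport gene Tspo2 at -0.88 ± 0.47 (SE) and the haem exporter Flvcr1 at 0.29 ± 0.17 (SE), with limma adjusted p of 0.880 to 0.997. The Hba-a2 probe set was dim, with a mean of 6.60 in wild type and 6.21 in Yaa. It lay far below the probe sets annotated to Hba-a2 and Hba-a1 together, so which transcript it reads is uncertain. Alas1 and Alas2 stood on opposite sides of wild type in Yaa 2, at 0.69 and -1.59. The rise of Alas1 was not particular to Yaa 2, since the mean of the other Yaa samples was 0.42 above wild type.

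Genes of dividing cells were low in the same sample. All 9 tested of 10 markers of proliferation were lowest in Yaa 2, where 30.3% of all tested genes were. Their median there was -1.72. The list's mean level was 9.35 in Yaa 2, 10.75 to 11.29 in wild type and 10.85 to 11.26 in the other Yaa samples. Among them, Ube2c, Cdk1 and Birc5 were at -1.97, -1.82 and -1.73 in Yaa 2, and Mki67 at -1.10. Megakaryocyte and platelet markers, which share Gata1, Tal1 and Nfe2 with red cells, were lowest in Yaa 2 in 4 of 6 cases, with a mean level of 6.65 there, 7.22 to 7.56 in wild type and 6.91 to 7.56 in the other Yaa samples. B cell markers had a mean level of 10.83 in Yaa 2 against 10.24 to 10.61 in wild type, with a median 0.34 above the wild-type mean. T cell markers had a median there 0.69 above it.

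Neutrophil markers, at 8.46 to 9.34 in wild type, stood at 8.59 in Yaa 2 and at 11.31, 10.79 and 10.20 in Yaa 1, 3 and 4. In Yaa 2 this mean level joined opposite moves. There S100a8 and S100a9 lay 0.48 and 0.72 above the wild-type mean. Cxcr2 lay 0.87 above it but was dim, at 4.39 to 5.70 in wild type and 5.85 in Yaa 2. Its wild-type mean of 4.97 was below the filter level of 5.38 and its Yaa mean of 5.84 above it, so its value carries little weight. Ngp, Camp, Ltf, Elane and Mpo lay at -1.04 to -0.33 relative to it. Red pulp macrophage markers were at 8.93 in Yaa 2, near the 9.01 to 9.11 of wild type, and at 10.40 in Yaa 3. Their level in Yaa 2 joined opposite moves as well. Relative to the wild-type mean, Slc40a1 and Vcam1 were at -0.86 and -0.59 there, and C1qa and Adgre1 at 0.76 and 0.23. The rest of the list lay between -0.24 and -0.01. In Yaa 3 the B cell and T cell markers were far down, at 5.52 and 5.56, while the erythroid median was 0.25 above wild type. limma called 0 genes of these 6 lists. No marker of a list was used to adjust the erythroid values, and the part of these cell types in the erythroid differences was not tested.

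**Figure D4:**
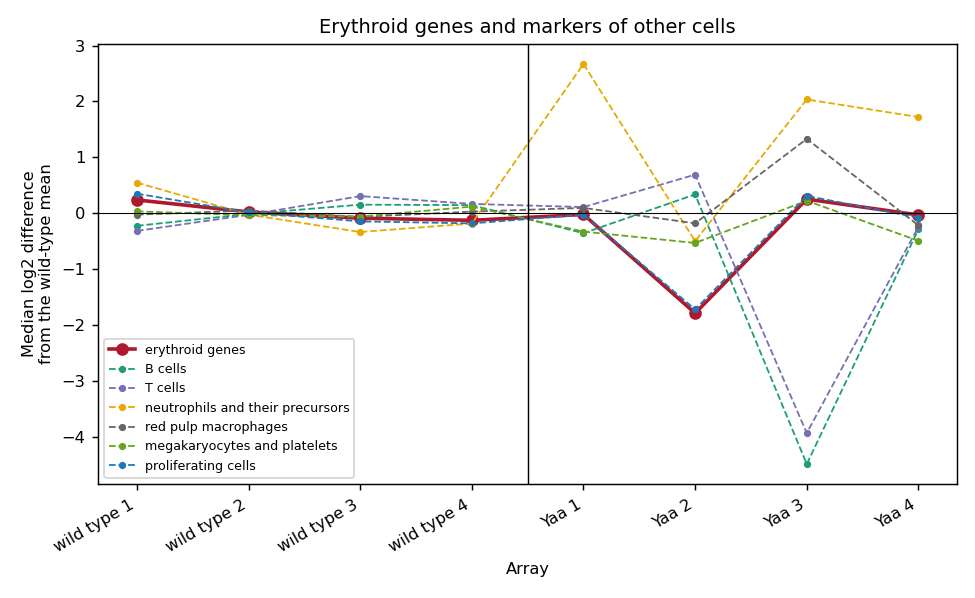
Points give the median log2 difference from the wild-type mean in each of 8 arrays for the 28 erythroid genes (red) and for the tested markers of 6 other cell types or states, and lines only join the points of a list. The erythroid and proliferation lists lie together at -1.79 and -1.72 in Yaa 2, where the T cell and B cell lists are at 0.69 and 0.34.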

How the data were processed

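Spleen cell RNA was measured on Affymetrix mouse arrays, 1 per sample. What the authors deposited is the signal intensity of each probe set, summarised with MAS5 per the submitters' processing notes. Its version, scaling target and filters are not given here in any label or header. Trimmed means (2% left out at each end) differed between arrays by over 10%, so all arrays were quantile normalized and log2(signal + 16) was taken, which understates changes of dim probe sets. The test covered 22518 probe sets, those above the median level that are no array controls. The fit of Yaa against wild type used limma 3.58.1 (R 4.3.3) with a mean-variance trend and Benjamini-Hochberg adjustment over all tested probe sets, threshold 0.05. Each animal or pool is 1 sample, and their number limits the precision. Symbols were updated through Entrez IDs to GRCm38.p6. Named are all listed symbols by role and the 6 further pathway genes with the smallest p. Members and lists were chosen with earlier results of these data known. The procedure was tested on simulated data, 4 samples against 4. It recovered 16% of 1.5-fold, 42% of 2-fold, 84% of 4-fold and 94% of 8-fold changes, so small differences can go uncalled. Alternatives were other pseudocounts, filters, scalings, variance models, a replicate block, probe set means and left-out samples. Same-numbered samples did not deviate together (correlations -0.37 to 0.02), which cannot settle whether they were paired. The labels state no pairing and the main fit used none. Figures were drawn with matplotlib 3.10.9.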

Additional observations from a re-analysis of the deposited data

Results flagged for a closer look

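In 12 of the 28 genes Yaa 2 lay further from the other 3 Yaa samples, relative to the group's whole range, than Dixon's limit for 4 values allows. The log2 signals of Yaa 2 were 11.54 for Alas2, 9.14 for Uros, 9.07 for Ppox, 11.33 for Fech, 11.40 for Slc25a37, 11.98 for Slc4a1, 9.05 for Epb42, 8.55 for Sptb, 10.65 for Rhag, 9.90 for Rhd, 9.69 for Kel and 9.65 for Bpgm. Chance flags about 1 in 20 groups, and the 56 groups looked at (28 genes in 2 strains) share their samples and are not independent. All 12 were in the Yaa group.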

How the results depend on the processing

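Yaa 2 was the lowest array in 28 of 28 genes, with a median of -1.81 to -1.68, under each scaling and pseudocount tried. limma called 0 of the 28 under every alternative run. Over all probe sets it called 0 with a pseudocount of 1, 0 with the filter at the 75th percentile of signal, 0 with the replicate block (731 at an unadjusted p under 0.05), and 143 with array weights, against 1 as reported. Leaving out samples gave 0 to 105 calls (0 without Yaa 1 or without Yaa 3, 30 without Yaa 2, 10 without Yaa 4, 105 without Yaa 2 and Yaa 3). The number of genes with a lower mean in Yaa ran from 7 (without Yaa 2) to 28. Array weights, which gave Yaa 2 and Yaa 3 a weight of 0.22 each, turned the sign for Car1 (0.012), Epb42 (0.036), Epor (0.063), Rhag (0.072), Sptb (0.073), Tal1 (0.083), Tfrc (0.056) and Tmod1 (0.015). Leaving out samples turned the sign for 21 genes, each of them when Yaa 2 was left out, with these ranges of the log2 difference: Alad -0.71 to 0.011, Ank1 -0.73 to 0.21, Car1 -0.36 to 0.29, Car2 -0.23 to 0.040, Epb42 -0.64 to 0.096, Epor -0.54 to 0.29, Ermap -0.61 to 0.069, Fech -0.57 to 0.037, Gata1 -0.84 to 0.13, Kel -0.77 to 0.035, Klf1 -0.56 to 0.15, Rhag -0.32 to 0.18, Slc25a37 -0.46 to 0.021, Slc4a1 -0.49 to 0.052, Sptb -0.44 to 0.20, Tal1 -0.44 to 0.23, Tfrc -0.24 to 0.17, Tmod1 -0.65 to 0.077, Trim10 -0.68 to 0.010, Urod -0.44 to 0.082 and Uros -0.74 to 0.065. The other 7 kept a negative sign but came closer to 0 when Yaa 2, or Yaa 2 and Yaa 3, were left out, with ranges of Alas2 -0.58 to -0.010, Bpgm -0.75 to -0.15, Cpox -0.91 to -0.17, Hbb-b2 -1.16 to -0.25, Nfe2 -0.85 to -0.063, Ppox -0.70 to -0.079 and Rhd -0.98 to -0.095. With the signals as deposited or centred on the median, the median of all probe sets was -0.20 or -0.11, and the members' differences include that shift. The alternatives for the alpha-globin probe set at the top of the scale, added after seeing the data, are not given, since normalization fixed its value in 3 arrays.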
